A study of Mus musculus with 21 samples.

Results

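The Aurora kinases and the other core subunits of the chromosomal passenger complex were described here in mouse oocytes with graded loss of *Kif11*, the gene of a kinesin that slides spindle microtubules apart. The set has 6 genes, which were taken by symbol from a list and matched to the 54232 genes of the count table. They are the kinases *Aurka* (ENSMUSG00000027496), *Aurkb* (ENSMUSG00000020897) and *Aurkc* (ENSMUSG00000070837), the scaffold *Incenp* (ENSMUSG00000024660), survivin (*Birc5*, ENSMUSG00000017716) and borealin (*Cdca8*, ENSMUSG00000028873). All 6 were counted in each of 21 libraries, and all 6 passed the filter on low counts.

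Each library was made from poly(A) RNA of 3 fully grown oocytes at the germinal vesicle stage, which is the prophase arrest before the first meiotic division. The females were 3 to 4 months old, on a C57BL/6 background, and had received a hormone injection 48 h before collection. Every group carried at least 1 floxed *Kif11* allele, including the control. The control was *Kif11* wt/fl without Cre (4 libraries). In wt/fl Spo11-Cre oocytes (5 libraries) the floxed allele is removed by a Cre that acts from early meiotic prophase. The fl/del oocytes (4 libraries) had a floxed allele beside a constitutively deleted one, without Cre, and fl/del Spo11-Cre oocytes (4 libraries) combined that genotype with Spo11-Cre. Both alleles are floxed in the fl/fl oocytes, whose Cre is driven by an oocyte promoter, either Gdf9-Cre (2 libraries) or Zp3-Cre (2 libraries). A mouse gave 1 or 2 libraries, so the libraries of a group are not all from separate animals and p-values measure the spread between libraries. Library names have 2 prefixes in wt/fl, 2 in fl/del, 2 in fl/del Spo11-Cre and 3 in wt/fl Spo11-Cre. Whether a prefix marks a mouse is not stated, and the exact tests treated each library as separate. After the prefix, these names have the letter A in all wt/fl and fl/del libraries. In all libraries with Spo11-Cre the letter is B or C. What the letter marks is not stated, and it cannot be told apart from Spo11-Cre. Levels are given as CPM, the count of a gene scaled to a library total of 1000000, and as mean ± SD over libraries.

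Aurora kinases are serine/threonine kinases of dividing cells. Aurora A works at spindle poles and at the microtubule organizing centers that replace centrosomes in oocytes. Aurora B and Aurora C are alternative catalytic subunits of the chromosomal passenger complex, in which INCENP binds and activates the kinase while survivin and borealin bring it to chromatin at the centromere. There the complex destabilizes faulty kinetochore-microtubule attachments, and later in division it moves to the spindle midzone. Aurora C is found mainly in germ cells.

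On GRCm38, *Aurka* lies on the minus strand of chromosome 2 (172356190 to 172370535), and *Aurkc* on the plus strand of chromosome 7 (6995300 to 7003091). *Aurkb* (69045647 to 69051664) and *Birc5* (117849251 to 117855743) are both on the plus strand of chromosome 11. *Incenp* is on the minus strand of chromosome 19 (9872296 to 9899551) and *Cdca8* on the minus strand of chromosome 4 (124918465 to 124939311). Of these, only *Cdca8* shared exon sequence with another annotated gene, with 232 of its 5177 exon bases overlapping *9930104L06Rik* on the opposite strand. The library kit did not keep the strand, so reads from those 232 bases could belong to either gene.

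Because *Aurkb* and *Aurkc* are close relatives, their coding sequences were compared to see how easily their reads can be told apart. The aligned coding sequences of *Aurkb* and *Aurkc* were 73.4% identical over 931 bases. The longest run shared by their whole transcripts was 25 bases. The coding sequence of *Aurka* was 66.3% identical to that of *Aurkb* and 65.7% to that of *Aurkc*. The longest runs shared by the whole transcripts were 20 and 12 bases. The most alike stretch of 150 bases, the length of a read, still differed at 27 positions between *Aurkb* and *Aurkc*. It is shown here from the transcripts Aurkb-201 (coding positions 566 to 715) and Aurkc-201 (coding positions 485 to 634), within the part that encodes the kinase domain. Capitals mark the bases that differ.
Aurkb: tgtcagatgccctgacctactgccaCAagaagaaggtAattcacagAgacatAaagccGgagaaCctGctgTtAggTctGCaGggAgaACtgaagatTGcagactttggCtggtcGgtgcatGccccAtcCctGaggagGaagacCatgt
Aurkc: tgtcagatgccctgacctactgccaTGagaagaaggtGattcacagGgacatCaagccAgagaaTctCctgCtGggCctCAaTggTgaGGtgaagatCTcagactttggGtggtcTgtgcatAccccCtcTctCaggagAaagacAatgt
The authors counted uniquely mapped reads only.

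Fully grown oocytes are transcriptionally silent and store many messages with short poly(A) tails, which are lengthened at meiotic resumption through cytoplasmic polyadenylation elements in the 3′ UTR. A poly(A)-primed library can therefore read tail length as well as message number. The motifs TTTTAT and TTTTAAT were searched on the transcript strand of the last 100 bases of each 3′ UTR. All 3 kinase transcripts held TTTTAT, and neither motif was found in this window for *Incenp*, *Birc5* or *Cdca8*. In the whole annotation, 17.1% of 20555 genes with a 3′ UTR of at least 50 bases held either motif in that window. The 30 bases around each match are shown with the motif in capitals.
Aurka, 59 bases from the end: ttaaaggctattTTTTATgttggagttctg
Aurkb, 37 bases from the end: tgaagaacaacaTTTTATaataaagtctta
Aurkc, 44 bases from the end: gcttgttttctcTTTTATgaagtgatgtta
These are matches of letters, and tail length was not measured. The polyadenylation signal AATAAA lay in the same window for *Aurkb*, *Incenp*, *Birc5* and *Cdca8*, but not for *Aurka* or *Aurkc*. Over the 20555 genes it lay there in 62.3%. Whether the annotated 3′ ends are those used in these oocytes was not tested.

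The total count per library ranged from 7205010 to 18454549, with the lowest total in fl/del replicate 3. The 4 fl/fl libraries had totals of 7801470 to 10759741, all below those of wt/fl (12729969 to 14283549). They also have another style of library name and lack the separate first-exon counts given for the other groups. The paper's total of sequenced libraries is smaller than the number used here. Whether the fl/fl libraries were prepared alongside the others is not stated. Depth, library set and the Gdf9-Cre and Zp3-Cre genotypes therefore cannot be told apart. The targeted gene had a lower mean than wt/fl in every other group. *Kif11* was at 34.5 ± 8.46 CPM in wt/fl and at 24.6 ± 5.04 with Spo11-Cre on this genotype. The ranges of these groups overlapped, and the difference was not called (log2 fold change -0.47, SE 0.20, edgeR adjusted p = 0.237). *Kif11* was at 11.9 ± 3.06 CPM in fl/del and, once Spo11-Cre was added, at 1.78 ± 0.68. In the fl/fl oocytes it was at 4.90 and 5.11 CPM with Gdf9-Cre and 7.95 and 4.27 CPM with Zp3-Cre. The 12 oocyte markers summed to between 21318 and 28522 CPM in the libraries. Of 18 follicle cell markers, *Serpine2*, *Cyp19a1* and *Nr5a2* carried nearly all of a sum of 401 to 565 CPM, whereas *Foxl2* and *Ptx3* were at 0 in 21 of 21 libraries. The follicle sum was 484 to 565 CPM in wt/fl, 401 to 505 in wt/fl Spo11-Cre, 457 to 545 in fl/del, 452 to 499 in fl/del Spo11-Cre and 414 to 557 in the fl/fl libraries. The 13 follicle markers that stayed under 5 CPM summed to 1.44 to 5.39 CPM in wt/fl and 3.59 to 12.9 in the fl/fl libraries, and their part in the results was not tested.

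All 6 genes were expressed in the control, at very unequal levels. Compared per length as TPM, which divides by the length of all exons of a gene, the wt/fl mean was highest for *Aurkc* (955 TPM), followed by *Birc5* (869), *Aurka* (500), *Cdca8* (221), *Incenp* (46.9) and *Aurkb* (32.6). Among 13842 genes at 1 TPM or more, these levels ranked 139, 159, 315, 798, 2972 and 3753. *Aurkc* and *Birc5* could not be ordered, since *Aurkc* was the higher of the pair in 11 of 21 libraries. Each of the other neighbours kept this order in 21 of 21 libraries. The closest of them were *Incenp* and *Aurkb*, whose TPM ratio in wt/fl was 1.45 on average and ranged from 1.11 to 1.72.

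The order depended on which length was used. Annotated exons of *Birc5* add up to 3402 bases but its transcript Birc5-201 has 947, and those of *Cdca8* add up to 5177 bases against 1264 in Cdca8-201. For the other 4 genes, all exons together were 1.32 to 1.51 times as long as the transcript. The deposited TPM of *Incenp* were higher than its summed exon length gives. Per kilobase of 1 transcript, *Birc5* was highest in wt/fl with 1270 CPM per kb, followed by *Aurkc* with 514, *Cdca8* with 369 and *Aurka* with 271. *Aurkb* (20.1) and *Incenp* (19.0) then had similar values, with *Aurkb* higher in 8 of 21 libraries. On both scales *Aurkb* was far below *Aurkc* and *Aurka* in each library.

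**Figure D1:**
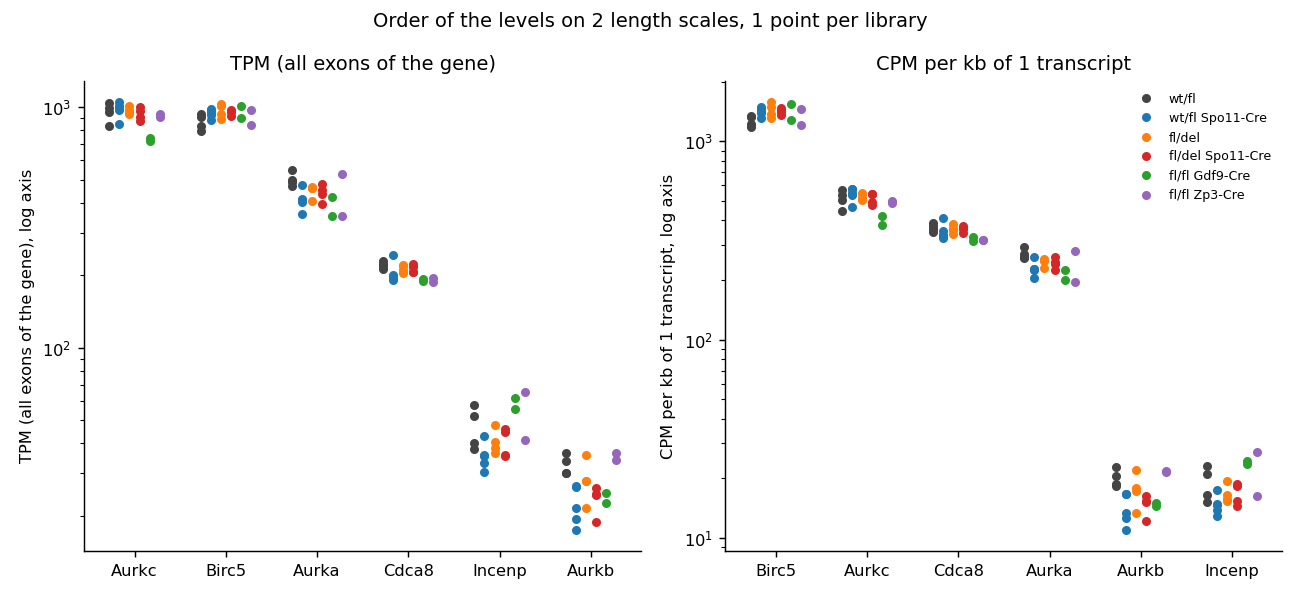
Level of the 6 genes per length, with 1 point per library, colored by genotype and Cre driver. The left panel gives TPM over all exons of a gene and the right panel gives CPM per kilobase of 1 transcript, both on a log axis. On TPM, *Aurkc* and *Birc5* are level and *Aurkb* is lowest. Per kilobase of 1 transcript, *Birc5* is highest and *Aurkb* and *Incenp* overlap.

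*Aurkc* made up almost all of the passenger kinase message. As a share of the summed TPM of *Aurkb* and *Aurkc*, it was 96.7% ± 0.43 in wt/fl (n = 4), a mean ratio of 29.5 between the genes. The ratio in single wt/fl libraries was 33.0, 24.7, 28.6 and 31.7. In wt/fl Spo11-Cre it was 46.7, 59.8, 32.0, 36.7 and 52.1, with a share of 97.7% ± 0.57 (n = 5). Here the ranges of both groups overlapped, between replicate 3 and the highest control library. The fl/del Spo11-Cre ratios were 37.2, 51.3, 35.6 and 38.4, above each wt/fl library, with a share of 97.6% ± 0.37 (n = 4). In fl/del it was 28.3, 44.1, 34.8 and 33.7, with a share of 97.2% ± 0.49. With Gdf9-Cre it was 29.1 and 33.0, and with Zp3-Cre 26.5 and 25.9, close to the control. The share was above wt/fl by 1.06 percentage points in wt/fl Spo11-Cre (exact permutation p = 0.0317, adjusted p = 0.0476 over 3 comparisons), by 0.87 in fl/del Spo11-Cre (exact p = 0.0286, adjusted p = 0.0476), and by 0.49 in fl/del (exact p = 0.171, adjusted p = 0.171). For 4 against 4 libraries, 0.0286 is the smallest two-sided p that can be reached. When 1 library was left out, the test of wt/fl Spo11-Cre no longer passed in 7 of 9 cases and that of fl/del Spo11-Cre in 8 of 8, where the smaller groups cannot pass it. These 3 comparisons share the control libraries, and adjustment was not over all genes. Fitted log2 fold changes in wt/fl Spo11-Cre and fl/del Spo11-Cre were 0.09 and 0.00 for *Aurkc*, and -0.49 and -0.45 for *Aurkb*. That of *Aurkb* did not pass over all genes in either (edgeR adjusted p = 0.0633 and 0.291). An exact test of CPM gave an unadjusted p under 0.05 for 10.9% and 4.18% of all genes there.

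**Figure D2:**
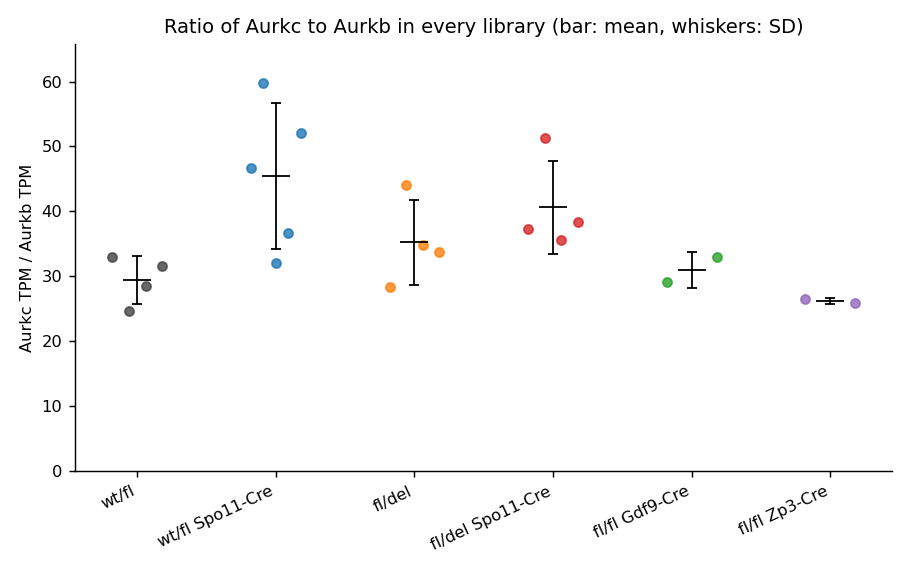
Ratio of *Aurkc* TPM to *Aurkb* TPM in each library, by genotype and Cre driver. Points are libraries, the bar is the mean and whiskers are the SD. The mean ratio is 29.5 in wt/fl, and with Spo11-Cre it is 45.5 on wt/fl and 40.6 on fl/del.

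The levels of single genes were then compared between genotypes, with edgeR fitted across all genes and Benjamini-Hochberg adjustment. No member passed the threshold in any of the 7 comparisons within the Spo11-Cre background. The one call was lower *Aurka* in the fl/fl oocytes against wt/fl, where depth and library set cannot be separated from genotype. In libraries that pool 3 oocytes, a lower level in each oocyte and a much lower level in 1 of them cannot be told apart. Exact permutation tests of CPM against wt/fl, for the 6 genes in the 3 other groups of the Spo11-Cre background, gave an unadjusted p under 0.05 in 6 of 18. With Spo11-Cre on wt/fl these were 3 of the 6, where the same exact test gave such a p for 10.9% of all genes tested. For fl/del without Cre they were 1 of the 6 (2.99% of all genes), and with Spo11-Cre 2 of the 6 (4.18%). By these exact tests they were *Aurkb* (p = 0.0159), *Aurka* (p = 0.0476) and *Birc5* (p = 0.0476) in wt/fl Spo11-Cre, *Aurka* in fl/del (p = 0.0286), and *Aurkb* and *Birc5* in fl/del Spo11-Cre (p = 0.0286 for both).

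Aurka, the spindle pole kinase, was at 517, 495, 491 and 559 CPM in the wt/fl libraries (516 ± 31.2). In wt/fl Spo11-Cre it was 496, 434, 436, 428 and 392 (437 ± 37.5), and replicate 1 was the only one within the control range. In fl/del it was 475, 488, 439 and 478 (470 ± 21.5), all below the lowest control library by a small margin. The fl/del Spo11-Cre libraries had 457, 429, 470 and 497 (463 ± 28.4), overlapping the control. The values with Gdf9-Cre were 426 and 382, and with Zp3-Cre 374 and 532. Thus 3 of the 4 fl/fl libraries were below each control library, and Zp3-Cre replicate 2 was within the control range. The log2 fold change of Aurka in the mean of both fl/fl groups against wt/fl was -0.35 (SE 0.10, 95% interval -0.56 to -0.15, edgeR adjusted p = 0.0409). Among all genes tested in this comparison, 2.79% were called, 237 higher and 410 lower with edgeR and 339 higher and 159 lower with limma on TPM. This call held in 7 of 17 alternatives. It was lost with RLE factors (adjusted p = 0.0541), in a fit of the compared groups alone (0.231), with libraries of a shared name prefix summed (0.230) and with limma on TPM (0.199). Without Zp3-Cre replicate 2 the log2 fold change was -0.51 (adjusted p = 0.000327), and without Zp3-Cre replicate 1 it was -0.21 (adjusted p = 0.428). It was also lost when Gdf9-Cre replicate 2 or any 1 of the wt/fl libraries was left out (adjusted p = 0.0611 to 0.182).

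Within the Spo11-Cre background, *Aurka* had a log2 fold change against wt/fl of -0.22 in wt/fl Spo11-Cre (edgeR adjusted p = 0.143), -0.12 in fl/del (adjusted p = 0.718) and -0.16 in fl/del Spo11-Cre (adjusted p = 0.491). The 95% interval in wt/fl Spo11-Cre excluded 0, and the difference did not pass after adjustment over all genes. There 0 of the 6 members were called by edgeR while 4 had an unadjusted p under 0.05. Over all genes, 2.19% were called and 15.0% had an unadjusted p under 0.05.

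**Figure D3:**
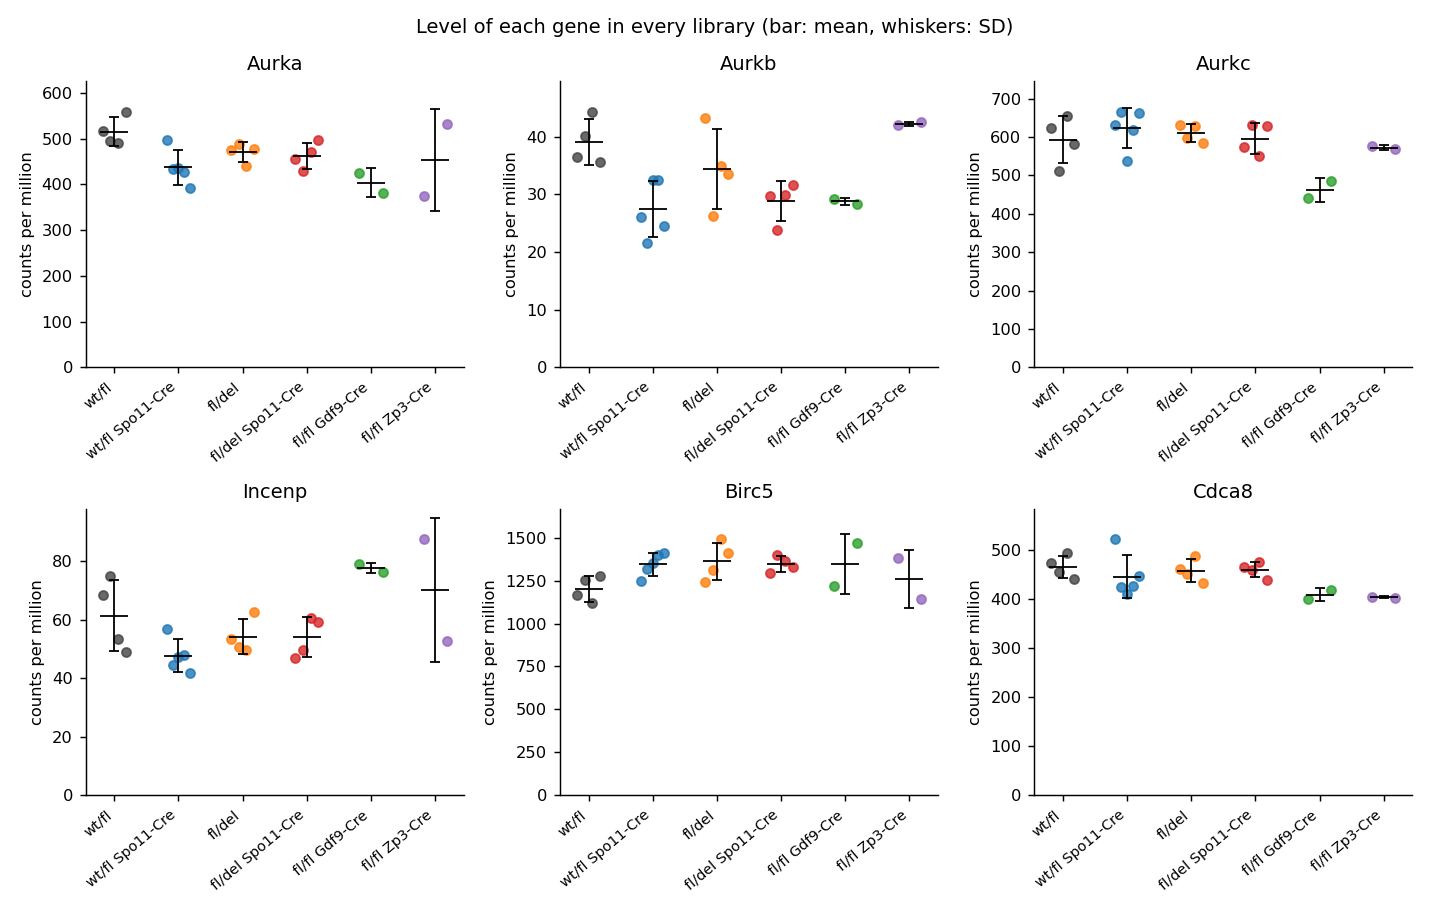
CPM of each of the 6 genes in every library, by genotype and Cre driver. Points are libraries, the bar is the mean and whiskers are the SD, and each axis starts at 0. *Aurkb* is lower in each wt/fl Spo11-Cre and fl/del Spo11-Cre library than in any wt/fl library, and *Cdca8* is lower in the 4 fl/fl libraries than in any wt/fl library.

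*Aurkb* had the largest fitted difference of the 6 genes with Spo11-Cre. It was at 36.5, 40.1, 44.3 and 35.6 CPM in wt/fl (39.1 ± 3.98), and at 26.1, 21.5, 32.5, 32.5 and 24.6 in wt/fl Spo11-Cre (27.4 ± 4.89). The groups did not overlap, which was also the case for 4.95% of all genes tested. The log2 fold change was -0.49 (SE 0.15, edgeR adjusted p = 0.0633), so *Aurkb* did not pass the threshold. It passed without the filter on low counts (adjusted p = 0.0417), with DESeq2 (0.0255) and without wt/fl Spo11-Cre replicate 3 (0.0490), and not in the other 16 of 19 alternatives. DESeq2 also called *Aurka* (adjusted p = 0.0206) and *Birc5* (0.0460) in this comparison, where it called 4.16% of all genes. In fl/del Spo11-Cre, *Aurkb* was at 29.8, 23.8, 29.9 and 31.7 CPM, again below each control library (log2 fold change -0.45, SE 0.16, edgeR adjusted p = 0.291). In fl/del, which has no Cre, it spread from 26.2 to 43.2 CPM and overlapped the control (log2 fold change -0.17, edgeR adjusted p = 0.809). For *Aurkb* the interaction, which asks whether Spo11-Cre has a different effect beside a del allele, was not called (0.21, SE 0.22, edgeR adjusted p = 0.80). With Gdf9-Cre it was at 29.3 and 28.4 CPM and with Zp3-Cre at 42.0 and 42.5, a log2 difference of 0.52 between the drivers (SE 0.23, edgeR adjusted p = 0.574). The counts behind these values were 252 to 675 per library.

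Aurkc, the germ cell partner of INCENP, stayed close to its control level across the Spo11-Cre background. It was at 623, 512, 655 and 583 CPM in wt/fl (593 ± 61.7) and averaged 623 ± 52.0 in wt/fl Spo11-Cre. The fl/del libraries averaged 611 ± 23.2 without Cre and 596 ± 40.2 with Spo11-Cre. Fitted against wt/fl, the log2 fold changes were 0.09, 0.06 and 0.00, with 95% intervals within -0.17 and 0.26. In the fl/fl oocytes it was at 440 and 484 CPM with Gdf9-Cre, below each of the other 19 libraries, and at 577 and 568 with Zp3-Cre, within the control range. The mean of both against wt/fl had a log2 fold change of -0.30 (SE 0.10, edgeR adjusted p = 0.0848). The drivers differed by 0.28 on the log2 scale (SE 0.14, edgeR adjusted p = 0.692).

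**Figure D4:**
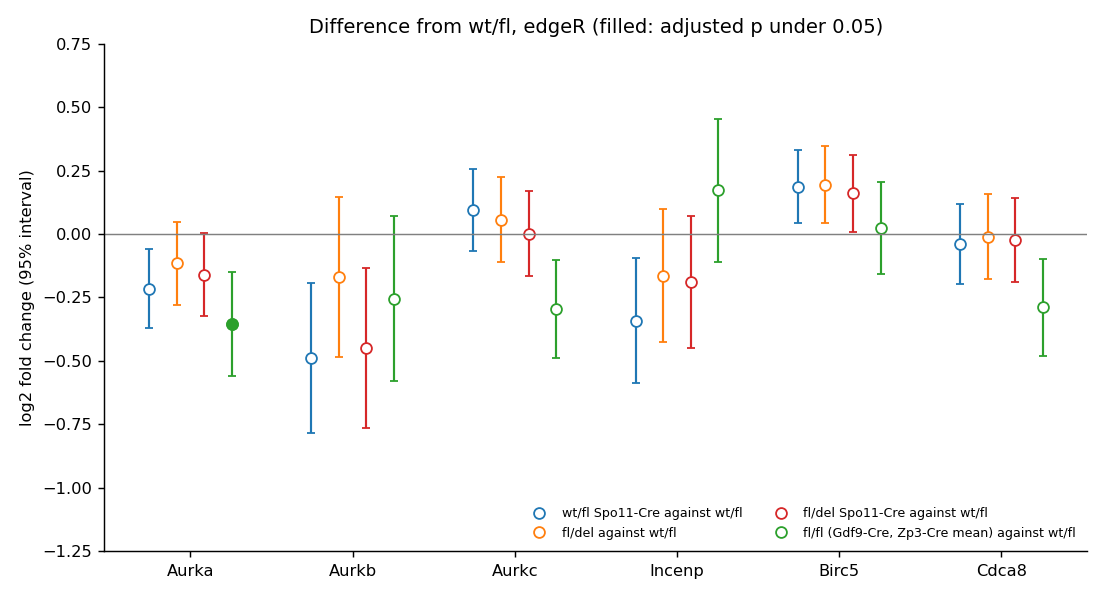
Log2 fold change of the 6 genes against wt/fl in 4 comparisons, from edgeR fitted across all genes, with 95% intervals. Filled points have an adjusted p under 0.05. *Aurka* in the fl/fl oocytes is the one filled point, and the intervals of *Birc5* lie above 0 in the 3 comparisons of the Spo11-Cre background.

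Among the subunits without kinase activity, *Birc5* was the only one with a higher mean CPM than the control in each other group, although the fl/fl libraries overlapped the control. Survivin binds histone H3 that Haspin has phosphorylated. *Birc5* was at 1164, 1251, 1118 and 1279 CPM in wt/fl (1203 ± 75.0). It was at 1248, 1317, 1351, 1402 and 1414 in wt/fl Spo11-Cre (1346 ± 67.4), at 1241, 1309, 1490 and 1409 in fl/del (1362 ± 109.7), and at 1294, 1401, 1366 and 1330 in fl/del Spo11-Cre (1348 ± 46.1). The last group was the only one of the 3 that did not overlap the control, which held for 4.18% of all genes tested. The log2 fold changes were 0.19 (SE 0.07, edgeR adjusted p = 0.183), 0.19 (SE 0.08, adjusted p = 0.551) and 0.16 (SE 0.08, adjusted p = 0.455). Their 95% intervals excluded 0, but none passed the threshold over all genes. All 3 comparisons used the same control libraries. Between the 3 *Kif11* mutant groups, *Birc5* differed by at most 0.03 on the log2 scale. The interaction for *Birc5* was -0.22 (SE 0.10, edgeR adjusted p = 0.450). Single fl/fl libraries spread from 1143 to 1469 CPM for *Birc5*. The fitted log2 fold change of the fl/fl mean against wt/fl was 0.02 (SE 0.09, edgeR adjusted p = 0.982). It changed sign in 3 of 17 alternatives, so a rise in the fl/fl oocytes was not shown.

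*Incenp*, the scaffold that carries the other subunits, varied most in relative terms, from 42.0 to 87.5 CPM. The wt/fl libraries alone spanned 49.0 to 75.0 CPM. In wt/fl Spo11-Cre it averaged 47.7 ± 5.58 CPM against 61.5 ± 12.3 in the control (log2 fold change -0.34, SE 0.12, edgeR adjusted p = 0.145). The fl/del group averaged 54.2 ± 5.97 and fl/del Spo11-Cre averaged 54.1 ± 6.89. In the fl/fl oocytes it was at 79.0, 76.5, 87.5 and 52.9 CPM, and 3 of these 4 values were above each control library. The log2 fold change of the fl/fl mean was 0.17 against wt/fl (SE 0.14, edgeR adjusted p = 0.626) and 0.36 against fl/del Spo11-Cre (SE 0.14, adjusted p = 0.186). Without Zp3-Cre replicate 2 the latter was 0.51 (adjusted p = 0.0213). The same library was thus the one furthest from the other fl/fl libraries for both *Aurka* and *Incenp*.

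*Cdca8*, which encodes the nucleosome-binding subunit borealin, was the steadiest of the 6 genes, with a highest to lowest ratio of 1.31 over the libraries. Its wt/fl mean was 466 ± 22.3 CPM without Cre and 446 ± 44.2 with Spo11-Cre, and its fl/del mean was 457 ± 22.9 without Cre and 459 ± 15.4 with Spo11-Cre. The fl/fl libraries were at 399, 417, 405 and 402 CPM, all below the lowest wt/fl library at 442, and 6.14% of all genes did not overlap in this comparison. The log2 fold change was -0.29 against wt/fl (SE 0.10, edgeR adjusted p = 0.0913) and -0.26 against fl/del Spo11-Cre (SE 0.10, adjusted p = 0.144). DESeq2 called it in both comparisons (adjusted p = 0.0115 and 0.0291), together with *Aurkc* (adjusted p = 0.0232 and 0.0266). It also called *Aurka* against wt/fl (adjusted p = 0.00988). DESeq2 called 4.78% and 4.59% of all genes there.

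The 6 genes were without a call in the other comparisons. Against wt/fl, 0 of the 6 were called in fl/del, where 0.0223% of all genes were called, and 0 of the 6 in fl/del Spo11-Cre (0.197%). In fl/del against wt/fl, *Aurka* was the one member whose groups did not overlap in CPM, which held for 2.99% of all genes. Against wt/fl Spo11-Cre, 0 of the 6 were called in fl/del Spo11-Cre (0.0357%) and in fl/del (0.201%). With against without Spo11-Cre on fl/del (0.241%) and for the interaction (0.103%), 0 of the 6 were called as well. The same was found for the fl/fl mean against fl/del Spo11-Cre (2.9%) and for Zp3-Cre against Gdf9-Cre (0.891%). With these shares over all genes, 0 of 6 was near the background and showed nothing particular to the members. In the fl/del background with against without Cre, where *Kif11* itself fell by 2.79 on the log2 scale, each of the 6 members had an edgeR unadjusted p above 0.05. The largest of these differences was that of *Aurkb* (-0.28, SE 0.16, 95% interval -0.60 to 0.04).

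Genes that work with the Aurora kinases were taken from a list of 44, all tested. They comprised 8 partners of Aurora A, 9 genes that recruit the passenger complex, 9 substrates and midzone partners, 10 phosphatase genes that oppose the kinases and 8 genes that remove them. In wt/fl Spo11-Cre against wt/fl, 4 of 44 were called, all lower, where 2.19% of all genes were called (194 higher and 297 lower). They were *Fzr1* (Cdh1), which targets Aurora A for degradation (log2 fold change -0.54, edgeR adjusted p = 0.00621), *Kif20a*, which carries the complex to the midzone (-0.46, adjusted p = 0.00687), *Cdc20*, the anaphase activator (-0.38, adjusted p = 0.0212), and *Ppp2r1a*, the scaffold of phosphatase 2A (-0.41, adjusted p = 0.0380). The median log2 fold change of the 44 was -0.12, against 0.03 for all genes. *Kif20a* had 107 to 139 CPM in wt/fl and 78.4 to 92.5 in wt/fl Spo11-Cre.

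No listed gene was called against wt/fl in either group with a del allele. When those groups were compared with each other, *Ndc80*, a kinetochore microtubule binder and Aurora substrate, was lower in fl/del Spo11-Cre (133 to 170 CPM) than in fl/del (192 to 221 CPM), with a log2 fold change of -0.46 (SE 0.10, edgeR adjusted p = 0.0143). *Ndc80* was also lower with Spo11-Cre on wt/fl (141.0 to 174.8 CPM against 174.9 to 211.5 without Cre), where it was not called. In the fl/fl oocytes against wt/fl, 4 of 44 were called, again all lower. Of all genes, 2.79% were called there, 237 higher and 410 lower, and limma on TPM turned that balance to 339 higher and 159 lower. *Tpx2* (-0.36, edgeR adjusted p = 0.0457) and *Tacc3* (-0.40, adjusted p = 0.0443) are an activator and a substrate of Aurora A, and *Kif23* (-0.35, adjusted p = 0.0345) and *Kif20a* (-0.60, adjusted p = 0.0213) are midzone kinesins. Of the 8 Aurora A partners, 7 had a log2 fold change below 0 here, with a median of -0.34. This was not particular to them, as 8 of 9 substrates and midzone partners were below 0 as well (median -0.21). So were 7 of 10 phosphatase genes (median -0.03), 4 of 9 recruitment genes (0.03) and 3 of 8 removal genes (0.04). The median of the 44 was -0.08, against -0.03 for all genes. The fl/fl libraries were not all lower. *Kif20a* was at 51.8 and 91.0 CPM (Gdf9-Cre) and at 55.2 and 139.8 (Zp3-Cre), against 107 to 139 in wt/fl. *Kif23* was at 599 and 764 CPM (Gdf9-Cre) and at 462 and 552 (Zp3-Cre), against 681 to 738, and *Tacc3* at 1595 and 2160 CPM (Gdf9-Cre) and at 1480 and 2761 (Zp3-Cre), against 2187 to 2740. For each of these 3 genes, 3 fl/fl libraries were below each control library and 1 was above each of them. For *Tpx2* the values were 364 and 400 CPM (Gdf9-Cre) and 252 and 385 CPM (Zp3-Cre), of which 400 was within the control range of 396 to 455. *Tpx2* was also lower than in fl/del Spo11-Cre (-0.44, edgeR adjusted p = 0.00775). Between Zp3-Cre and Gdf9-Cre, *Ckap5*, the microtubule polymerase bound by TACC3, was lower with Zp3-Cre (log2 fold change -0.65, edgeR adjusted p = 0.0264). It was at 118 and 125 CPM with Zp3-Cre and at 184 and 188 with Gdf9-Cre. *Ckap5* was at 136 to 166 CPM in wt/fl and at 116 to 162 in fl/del. Both Gdf9-Cre values were above every other library, while both Zp3-Cre values were below wt/fl and within the fl/del range. The wt/fl Spo11-Cre call of *Fzr1* held in 17 of 19 alternatives, that of *Kif20a* in 16, that of *Cdc20* in 15 and that of *Ppp2r1a* in 11. In the fl/fl oocytes against wt/fl the call of *Kif20a* held in 10 of 17, that of *Kif23* in 8, that of *Tacc3* in 7 and that of *Tpx2* in 5, and the call of *Tpx2* against fl/del Spo11-Cre held in 13 of 17. The call of *Ndc80* held in 11 of 18 and that of *Ckap5* in 8 of 13. Where they were lost, the highest adjusted p was 0.731, for *Ckap5*.

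**Figure D5:**
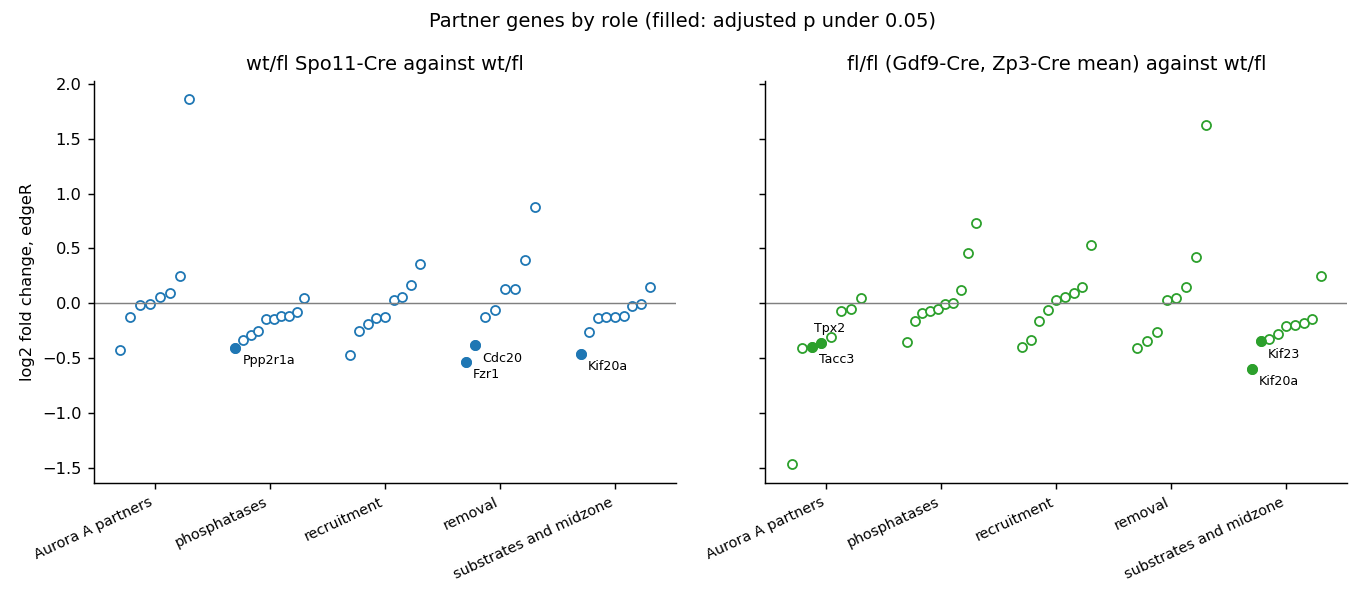
Log2 fold change of 44 genes that work with the Aurora kinases, by role, from edgeR, in wt/fl Spo11-Cre (left) and in the fl/fl oocytes (right) against wt/fl. Each point is a gene, and filled points with names have an adjusted p under 0.05. Each panel has 4 filled points, all below 0. The open points furthest from 0 are *Ajuba* and *Klhl21*, which had wt/fl means of 0.074 and 0.51 CPM.

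The levels of the 6 genes did not move as one across libraries. Pearson correlations of log2(CPM + 1) over the 21 libraries ranged from -0.64 for *Aurka* with *Birc5* to 0.50 for *Aurkc* with *Cdca8*. *Incenp* and *Aurkc* had the second lowest value (-0.62), and *Aurkb* with *Aurkc* had -0.09. CPM values share each library's total and some libraries share a mouse, so these are descriptions. Among 7755 genes with a mean of at least 10 CPM, the profiles most like *Aurka* were those of *Prr14* (0.91), *Kif20a* (0.90) and *G6pdx* (0.90), of which *Kif20a* is the midzone kinesin named above. For *Aurkb* they were *Eif2b4* (0.81), *Nckap1* (0.81) and *Bnc2* (0.79), and for *Aurkc* *Pcgf1* (0.81), *Cldn8* (0.79) and *Obox5* (0.78). *Incenp* was most like *Uvrag* (0.86), *Ppfia1* (0.85) and *Phf3* (0.85). *Birc5* was most like *Dppa5a* (0.89), *Cox14* (0.87) and *E330017A01Rik* (0.87), and *Cdca8* like *Snrnp70* (0.77), *Phf7* (0.75) and *Sap30bp* (0.74). None of the 6 was among the 3 nearest profiles of another.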

How the data were processed

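Poly(A) RNA libraries of 3 oocytes were amplified with SMART-seq v4 for 13 cycles, tagmented, amplified for 12 more cycles and read as 150 bp pairs. The authors used fastp for trimming, HISAT2 2.2.1 for alignment to GRCm38, and featureCounts 2.0.3 with Ensembl genes to count reads that mapped once. The deposited counts are whole numbers without normalization. How the authors made the deposited TPM is not given in the sources used here. In wt/fl replicate 1, TPM relative to CPM was inverse to the summed exon length for *Aurka*, *Aurkb*, *Aurkc*, *Birc5* and *Cdca8*. For *Incenp* it was higher than that length gives. The all-exon counts were used here. For the 6 genes they were 1.92 to 2.00 times those of the table with exon 22 of Kif11, and how pairs were counted is not given in the sources used here.

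Testing, of genes detected in 3 or more libraries, was done with edgeR 4.0.16 in R 4.3.3 (TMM, quasi-likelihood test, Benjamini-Hochberg adjusted p under 0.05), in 17 libraries (22383 genes) or, for the fl/fl groups, in 21 (23225 genes). For single levels and the *Aurkc* share, exact permutation tests (two-sided) were used. The code was tested on simulated data. The members and lists were chosen with earlier results of these data known. The text names the 6 members, Kif11, listed genes called in any comparison, and the 3 genes most correlated with each member. Deviations of same-numbered libraries of different groups from their group means had correlations of -0.05 to 0.05. For libraries of other numbers these were -0.06 to 0.07. Groups differ in genotype and so cannot share a mouse, and this check cannot exclude a shared preparation. Other alternatives used DESeq2 1.42.0, limma 3.58.1, RLE factors, other filters, other sets of libraries and summed libraries. Positions and sequences come from the GENCODE annotation of GRCm38.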

Additional observations from a re-analysis of the deposited data

How the results depend on the processing

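Under the alternatives, 372 values of the comparisons and 1040 log2 fold changes of single genes kept their direction and side of the threshold or, where no test applied, moved by less than the replicate SD or, for counts, by no more than 1.5 times. Of the other comparison values, 58 no longer passed and 2 newly passed the threshold, 10 changed sign and 19 moved further, and of the other log2 fold changes, 10 lost and 12 gained a call and 42 changed sign. Numbers of the 6 genes called changed in 3 comparisons. DESeq2 called 3 in wt/fl Spo11-Cre against wt/fl, 3 in the fl/fl mean against wt/fl and 2 in the fl/fl mean against fl/del Spo11-Cre, and edgeR without a filter called 1 in the first. RLE factors, a fit of the compared groups, summed libraries and limma on TPM called 0 in the second. With 1 library left out, the counts were 0 to 1, 0 to 1 and 0 to 2. For *Aurkb* in the first, the log2 fold change was then -0.56 to -0.41 (edgeR adjusted p = 0.0490 to 0.182). Over all genes, edgeR called 491 in the first comparison (194 higher, 297 lower), against 931 with DESeq2, 742 without a filter, 252 with 21 libraries and 79 with limma on TPM (15 higher, 64 lower). In the second it called 647, against 1109 with DESeq2, 238 with the compared groups alone and 233 with summed libraries. With 1 library left out, the first gave 179 to 575, with 179 without wt/fl replicate 2, 266 without wt/fl replicate 4 and 263 without wt/fl Spo11-Cre replicate 5. The second gave 303 to 1353, with 1353 without Zp3-Cre replicate 2, 303 without Zp3-Cre replicate 1, 392 without Gdf9-Cre replicate 2 and 408 without wt/fl replicate 2. The shares of all genes called rest on these counts. The cause was not tested.

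The *Aurkc* share per transcript length, an alternative chosen after seeing the data, was 96.2% in wt/fl, 96.4% with Gdf9-Cre and 95.8% with Zp3-Cre. With 1 TPM added it was 96.2% with Zp3-Cre. With replicate numbers as a block, the share exceeded wt/fl by 0.965 points in wt/fl Spo11-Cre and by 0.870 points in fl/del Spo11-Cre (exact p = 0.125 for both, the smallest that 4 pairs allow). Whether the numbers pair the libraries is not stated. In edgeR the replicate block changed no call of the 6 genes, and reversed *Birc5* in fl/del Spo11-Cre against wt/fl Spo11-Cre (0.00379). With 1 library left out, these share differences were 0.867 to 1.25 and 0.678 to 0.997 points.

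With TMM library sizes, *Aurka* in CPM differed from wt/fl by -39.8 in fl/del (exact p = 0.114) and by -55.0 in fl/del Spo11-Cre (exact p = 0.0286), and *Aurkc* in fl/del Spo11-Cre had -0.0790. Where leaving out 1 library gives 3 against 4, an exact test cannot pass, which applies to fl/del and fl/del Spo11-Cre. In wt/fl Spo11-Cre it can, and the exact p of *Aurka* and of *Birc5* rose above 0.05 in 8 of 9 cases. With 1 library left out, the differences were, in wt/fl Spo11-Cre, -93.2 to -64.0 for *Aurka*, -17.9 to -9.24 for *Incenp* and 115 to 169 for *Birc5*. They were -53.6 to -30.8 for *Aurka*, -9.79 to 38.0 for *Aurkc* and -18.0 to 0.640 for *Cdca8* in fl/del, and -11.5 to -8.61 for *Aurkb*, -24.3 to 23.5 for *Aurkc*, 117 to 170 for *Birc5* and -14.9 to 2.23 for *Cdca8* in fl/del Spo11-Cre.

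Uncalled log2 fold changes near 0 changed sign. For *Aurkc* in fl/del Spo11-Cre against wt/fl they were -0.000202 with 21 libraries, -0.00661 with summed libraries, -0.00548 with the exon 22 counts and -0.0218 with limma. For *Birc5* they were 0.0112 in fl/del Spo11-Cre (limma) and -0.0144 in fl/del (summed), against wt/fl Spo11-Cre. For *Cdca8* they were 0.00607 in fl/del Spo11-Cre against fl/del (summed) and 0.00307 in Zp3-Cre against Gdf9-Cre (limma).

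With 1 library left out, log2 fold changes that changed sign had these ranges. *Aurkc* had -0.00729 to 0.118 in fl/del and -0.0638 to 0.0611 in fl/del Spo11-Cre, and *Cdca8* -0.0342 to 0.0269 and -0.0473 to 0.0111, against wt/fl. Of fl/del Spo11-Cre against wt/fl Spo11-Cre, *Aurkb* had -0.0344 to 0.118, *Birc5* -0.0586 to 0.00251 and *Cdca8* -0.0114 to 0.0715. Of fl/del Spo11-Cre against fl/del, *Incenp* had -0.0849 to 0.0401, *Birc5* -0.0708 to 0.00575 and *Cdca8* -0.0539 to 0.0147. *Birc5* had -0.0324 to 0.0441 in fl/del against wt/fl Spo11-Cre and -0.0371 to 0.0978 in the fl/fl mean against wt/fl, and the interaction of *Cdca8* had -0.0112 to 0.0818. Of Zp3-Cre against Gdf9-Cre, *Aurka* had -0.195 to 0.405, *Incenp* -0.547 to 0.0887 and *Birc5* -0.259 to 0.0102, where a lone library is assumed to vary like the others.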
